A study of Homo sapiens with 8 samples.

Results

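Epithelial keratin genes and the keratin-associated gene *KRTAP2-3* were followed by RNA-seq in the colorectal cancer cell line HCT-116. The set held 9 genes, *KRT7*, *KRT8*, *KRT10*, *KRT18*, *KRT19*, *KRT20*, *KRT23*, *KRT80* and *KRTAP2-3*, taken by name from the 20030 gene rows of every library. The study asked which genes *HHEX*, a homeobox transcription factor, shares with the coactivators YAP and TAZ and their DNA-binding partners, the TEAD factors. Cells had received control siRNA (siNC, 2 libraries), an siRNA to *HHEX* (siHHEX, 3 libraries), siRNAs to both *YAP1* and the TAZ gene *WWTR1* (siYAP/TAZ, 2 libraries) or siRNAs to all TEAD genes together (siTEAD1/2/3/4, 1 library), 8 libraries in all. All groups were the same line with no other treatment named, and no time after transfection is given in the sources used here. The replicates of a knockdown are numbered as the siRNAs in the study's methods are, and nothing says whether libraries came from separate cultures, so the p-values measure the spread between these libraries only. *KRTAP2-3* was selected on its FPKM changes from siNC, being lower in every knockdown group, so those changes are described below without a test. The 8 keratins were listed by name with earlier results of these data known.

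Keratins are the intermediate filament proteins of epithelial cells, and a filament forms only when a type I (acidic) keratin pairs with a type II (basic) keratin. Glandular and intestinal epithelia rely mainly on the type II keratin *KRT8* with the type I keratins *KRT18* and *KRT19*, whereas stratified epithelia such as skin use *KRT5* with *KRT14* and, in their upper layers, *KRT1* with *KRT10*. Keratin-associated proteins are small cysteine-rich proteins best known from the hair shaft, where they crosslink keratin filaments.

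The authors' FPKM values (fragments per kilobase, scaled to library size) summed to between 331663 and 383423 per library, and 9990 to 10663 genes reached 1 FPKM. The depth in reads is unknown, because low values did not give back whole reads. *HHEX* stood at 8.60 and 9.06 FPKM in siNC and at 3.25, 3.54 and 1.85 in the siHHEX libraries, a change of -1.37 on the log2(FPKM + 1) scale (adjusted p = 0.0054, limma). *YAP1* stood at 20.2 and 19.7 FPKM in siNC and 6.90 and 8.39 in siYAP/TAZ, and it was also low in siHHEX 1 (5.77) and siHHEX 3 (6.93) but not in siHHEX 2 (17.4). The *YAP1* change in siYAP/TAZ was -1.28 and did not pass (adjusted p = 0.0681, limma), while it passed with a correction of each library for GC content and transcript length (-1.30, adjusted p = 0.046, limma). *TEAD1*, which siHHEX does not target, stood at 18.3 and 19.04 FPKM in siNC and at 6.99, 10.2 and 5.30 in siHHEX (log2 change -1.25, adjusted p = 0.00641, limma). In siHHEX, *YAP1* changed by -1.07 (adjusted p = 0.0429, limma) and *TEAD2* by 0.78 (adjusted p = 0.00709, limma), neither passing with that correction. In siYAP/TAZ, *TEAD4* changed by -0.63 (adjusted p = 0.025, limma). *HHEX* stood there at 4.80 and 7.12 FPKM and did not pass (-0.52, adjusted p = 0.196, limma). The part of these differences in the siHHEX and siYAP/TAZ values below was not tested. *WWTR1* fell from 6.80 and 6.72 FPKM to 2.64 and 2.58 in siYAP/TAZ (adjusted p = 0.0156, limma). In the siTEAD1/2/3/4 library, *TEAD1* (9.02 FPKM), *TEAD2* (2.73) and *TEAD4* (5.56) lay below both siNC libraries, and *TEAD3* (9.08) lay above them.

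Epithelial markers were present throughout, with *EPCAM* at 116 to 174 FPKM, *CDH1* at 8.16 to 15.7 and the intestinal factor *CDX2* at 3.86 to 6.24. The villus gene *VIL1* did not exceed 0.0335 FPKM, and *CDX1* was listed at 0 in all libraries, so that these defining intestinal markers were at or near 0. Fibroblast markers summed to at most 2.80 FPKM, endothelial markers to at most 0.0882 and leukocyte markers to at most 8.18, of which *CD68* was the most abundant gene. The fibroblast and endothelial sums were highest in siYAP/TAZ 2 and next in siHHEX 3 (1.99 and 0.0525), the libraries with squamous markers described below. *PTPRC* was also highest in these (0.101 FPKM in siHHEX 3 and 0.0786 in siYAP/TAZ 2), whereas the leukocyte sum was highest in siYAP/TAZ 1.

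The libraries siHHEX 3 and siYAP/TAZ 2 stood apart from the rest. A list of 6 squamous epithelium markers (*KRT1*, *KRT4*, *KRT5*, *KRT13*, *KRT14* and *TP63*) summed to 33.5 FPKM in siHHEX 3 and 74.0 in siYAP/TAZ 2, against 5.13 to 11.0 in the other libraries. In these 2 libraries 5 of the 6 markers reached 1 FPKM, with *KRT13* the most abundant, while *TP63*, which encodes the p63 factor of basal squamous cells, stood at 0.0456 and 0.169 FPKM. Calls that changed without these libraries are named below. Wherever a library of siNC or siYAP/TAZ was left out, that group held 1 library, which was assumed to vary like those of the other groups. The source of this signal was not tested.

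The genes lie in the keratin clusters of chromosomes 12 and 17 (GENCODE 44, GRCh38). The type II genes *KRT80* (chr12:52168996-52192014, minus strand), *KRT7* (chr12:52232520-52252186, plus strand) and *KRT8* (chr12:52897187-52949954, minus strand) lie beside *KRT18* (chr12:52948871-52952906, plus strand), the type I gene found outside the type I cluster. *KRT8* and *KRT18* annotations overlap by 1084 bases on opposite strands, and 18.5% of the 100-base windows of the *KRT18* transcript also occur in a *KRT8* transcript on the other strand. The strand setting of the counting is not given in the sources used here, so reads from that stretch cannot be told apart. *KRT10* (chr17:40818117-40822614), *KRT20* (chr17:40875889-40885242), *KRT23* (chr17:40922700-40937646), *KRTAP2-3* (chr17:41059240-41060114) and *KRT19* (chr17:41523617-41528308) all lie on the minus strand of chromosome 17.

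*KRTAP2-3* is a gene of 1 exon with 3 neighbours of its family, *KRTAP2-1*, *KRTAP2-2* and *KRTAP2-4*, whose whole transcripts are 69.6% to 73.8% identical to its own. Its coding sequence of 384 bases differs from that of *KRTAP2-4* by 1 base (T333C, counted from the A of the start codon as position 1, *KRTAP2-3* first) and from that of *KRTAP2-1* by 2 bases (G30C and T333C), while that of *KRTAP2-2* is 95.8% identical over 384 aligned columns. Coding bases 303 to 362 are shown because they hold the position that separates *KRTAP2-3* from both, in capitals.
*KRTAP2-3*: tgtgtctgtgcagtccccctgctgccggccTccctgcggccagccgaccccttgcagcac
*KRTAP2-1*: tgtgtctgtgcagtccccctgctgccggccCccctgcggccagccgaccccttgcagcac
*KRTAP2-4*: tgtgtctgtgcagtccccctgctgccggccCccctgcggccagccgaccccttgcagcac
Of the 100-base windows of the *KRTAP2-3* transcript, 34.0% also occur in a *KRTAP2-4* transcript, so part of its reads could be split among copies and its level is uncertain to that extent. The files nevertheless separated the copies, with *KRTAP2-1* at no more than 0.132 FPKM in any library, *KRTAP2-2* at no more than 0.404 (0.404 and 0.27 in siNC and at most 0.135 in the knockdown libraries) and *KRTAP2-4* at no more than 0.348.

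The upstream sequence of *KRTAP2-3* is shown because this was the one copy that reached 1 FPKM. The 250 bases before its RefSeq start (GRCh38.p14, chr17:41060115-41060364, minus strand) hold a TATAAA motif, in capitals, whose first base lies 28 bases before the start.
*KRTAP2-3*: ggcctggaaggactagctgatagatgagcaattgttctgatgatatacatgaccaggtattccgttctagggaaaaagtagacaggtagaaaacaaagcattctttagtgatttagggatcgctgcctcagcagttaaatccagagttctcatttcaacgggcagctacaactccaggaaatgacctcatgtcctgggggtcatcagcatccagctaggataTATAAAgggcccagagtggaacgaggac
TATAAA, searched on the gene's strand, occurs in 7.17% of the 27305 upstream sequences of the same length. It is also in the windows of the neighbours *KRTAP2-1*, *KRTAP2-2* and *KRTAP2-4*, 43, 73 and 58 bases before the start, and of *KRT10*, 29 bases before it. The letters CATTCC, the core of the TEAD motif, and TGANTCA, the core of the AP-1 motif, were searched on both strands and occur in 11.9% and 6.60% of these sequences, and neither is in the windows of *KRTAP2-3*, *KRT8*, *KRT10* or *KRT20*. RefSeq gave entries for these 4 of the 9 genes. The *KRT8* window (chr12:52926470-52926719) lies inside the *KRT8* gene as placed by GENCODE 44, away from the start given there.

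*KRT8*, *KRT18* and *KRT19* made up most of the keratin signal. *KRT8*, the main type II keratin of simple epithelia, was the most abundant member in every library, with 1649 ± 82.5 FPKM in siNC (SD, n = 2). Together with *KRT18* and *KRT19* it held 98.7% of the FPKM of all keratin genes in both siNC libraries. The share was at least 97.4% in all other libraries but siYAP/TAZ 2, and 92.0% in siYAP/TAZ 2. These keratin genes include *KRT222*, a keratin-like gene of neither type. Since these were bulk RNA samples, fewer cells expressing a keratin and less RNA per cell cannot be told apart.

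**Figure D1:**
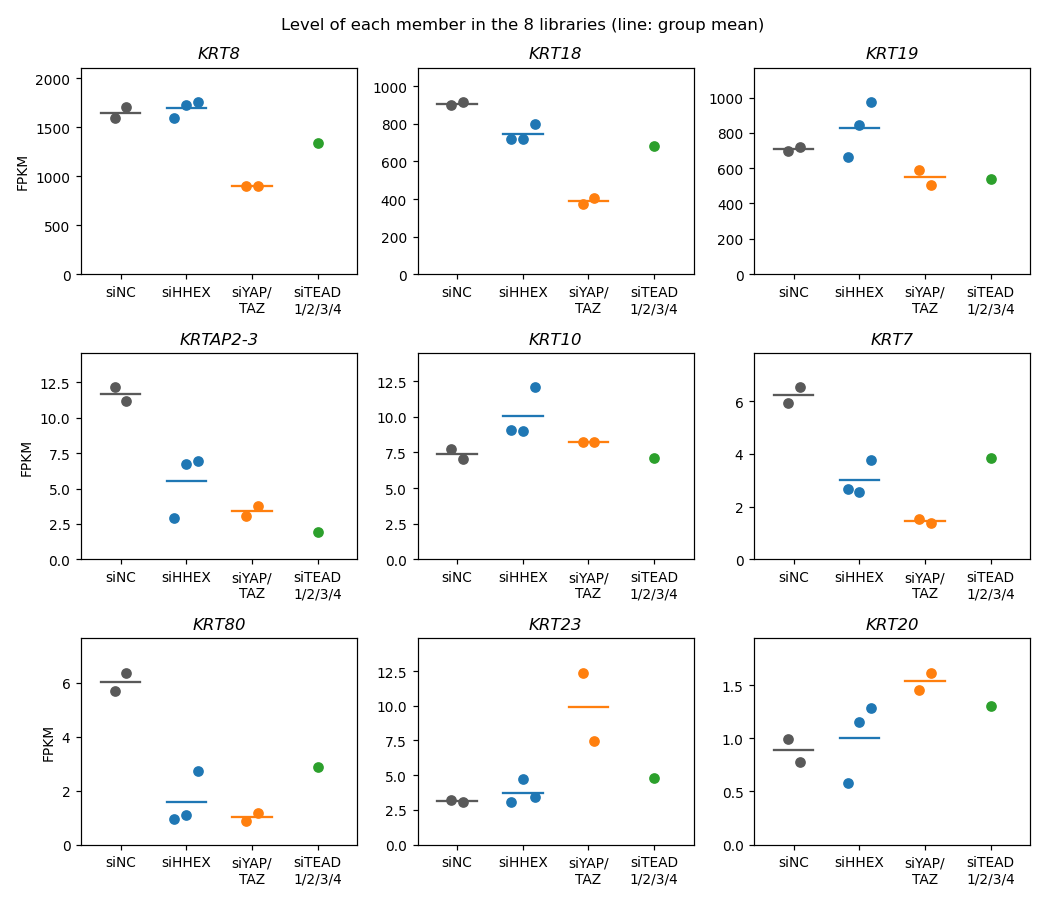
FPKM (linear axis from 0, its range differing between panels) of the 9 genes in the 8 libraries, as 1 point per library and a line at the mean of each replicated group. *KRT8* and *KRT18* were lowest in siYAP/TAZ, where *KRT8* stood at 897.9 and 897.4 FPKM, and *KRTAP2-3* was lower in all 6 knockdown libraries (1.92 to 6.93 FPKM) than in siNC (11.2 and 12.2).

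*KRT8* stood at 1591 and 1707 FPKM in siNC, at 1593, 1722 and 1757 in siHHEX, at 897.9 and 897.4 in siYAP/TAZ and at 1341 in siTEAD1/2/3/4. The siHHEX libraries overlapped siNC, whereas both siYAP/TAZ libraries and the siTEAD1/2/3/4 library lay below all others. In siYAP/TAZ the mean was 54.4% of that in siNC, a log2 change of -0.88 (SE 0.087, adjusted p = 0.00227, limma). The siHHEX change was 0.036 (SE 0.0795, adjusted p = 0.738, limma), and after correction of each library for GC content and transcript length it was -0.35 (adjusted p = 0.049, limma). That call was lost when the corrected fit also held a replicate block. *KRT8* was also lower in siYAP/TAZ than in siHHEX, by a log2 change of -0.91 (SE 0.0795, adjusted p = 0.00237, limma), or -0.51 with that correction (adjusted p = 0.0175, limma).

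*KRT18*, the type I partner of *KRT8*, stood at 900.5 and 917 FPKM in siNC, at 718, 722 and 797 in siHHEX, at 376 and 404 in siYAP/TAZ and at 681 in siTEAD1/2/3/4. No knockdown library reached the siNC range, and the 3 knockdown groups did not overlap each other. The siYAP/TAZ mean was 42.9% of that in siNC (log2 change -1.22, SE 0.0957, adjusted p = 0.000861, limma). In siHHEX it was 82.1% (log2 change -0.29, SE 0.0874, adjusted p = 0.0348, limma). The call was lost when the fit held a replicate block (-0.34, adjusted p = 0.0535, limma) and without siHHEX 1 (-0.26, adjusted p = 0.0876, limma). It was also lost with no filter and without either siNC library. With the GC and length correction the change was -0.69 (adjusted p = 0.00566, limma), and with the block added as well -0.69 (adjusted p = 0.0343, limma). *KRT18* fell further in siYAP/TAZ than in siHHEX, with a log2 difference of -0.93 (SE 0.0874, adjusted p = 0.00237, limma), or -0.51 with the GC and length correction (adjusted p = 0.0142, limma).

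*KRT19*, the smallest type I keratin, which lacks most of the usual tail domain, varied more within siHHEX. It stood at 696 and 717.5 FPKM in siNC, at 662, 847 and 975 in siHHEX, at 590 and 505 in siYAP/TAZ and at 538 in siTEAD1/2/3/4. The siHHEX libraries lay on both sides of siNC, with the highest value in siHHEX 3, and both siYAP/TAZ libraries and the siTEAD1/2/3/4 library lay below siNC. *KRT19* did not pass the test in siHHEX (log2 change 0.21, SE 0.149, adjusted p = 0.285, limma) or in siYAP/TAZ (-0.37, SE 0.163, adjusted p = 0.179, limma). The siYAP/TAZ change passed when only the groups compared were fitted (adjusted p = 0.0466, limma). The difference of -0.58 between siYAP/TAZ and siHHEX passed (adjusted p = 0.0163, limma), but not without siHHEX 3 and siYAP/TAZ 2 (-0.34; adjusted p = 0.16, limma) or with the GC and length correction (-0.11; adjusted p = 0.633, limma).

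Summed over all keratin genes, *KRT222* included, keratins made up 0.926% and 0.979% of all FPKM in siNC and 0.805%, 0.912% and 0.945% in siHHEX. They made up 0.577% and 0.583% in siYAP/TAZ and 0.755% in siTEAD1/2/3/4. The siYAP/TAZ libraries had the lowest shares. Of the FPKM of type I and type II genes alone, type II genes held 50.5% ± 0.850 (SD, n = 2) in siNC and 51.6% ± 1.96 (n = 3) in siHHEX. They held 48.2% ± 1.16 (n = 2) in siYAP/TAZ and 52.1% in the single siTEAD1/2/3/4 library. The siHHEX range of this share, 49.5% to 53.3%, overlapped that of siNC, and both siYAP/TAZ libraries, at 47.4% and 49.1%, lay below both siNC libraries. The share was not tested with a model, and an exact permutation test between groups of this size could not reach 0.05. The ratio of *KRT8* to *KRT18* was 1.77 and 1.86 in siNC and lay between 1.97 and 2.39 in the 6 knockdown libraries, with no overlap.

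**Figure D2:**
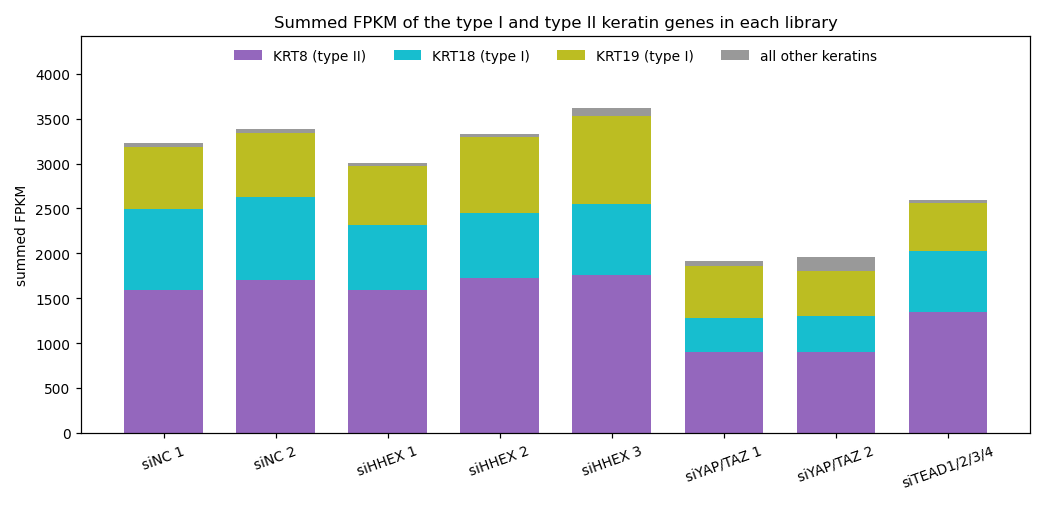
Summed FPKM of type I and type II keratin genes (vertical axis, from 0) in each library, split into *KRT8*, *KRT18*, *KRT19* and all others. The *KRT8*, *KRT18* and *KRT19* total was 3187 and 3342 FPKM in siNC and 1863 and 1807 in siYAP/TAZ, and the grey portion is largest in siYAP/TAZ 2.

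Of the 8 keratins, 3 were called lower in siHHEX than in siNC (*KRT18*, *KRT7* and *KRT80*) and 0 higher, where 16.9% of the 10677 tested genes were lower and 16.0% higher at an adjusted p under 0.05 in limma. In siYAP/TAZ, 4 were lower than in siNC (*KRT8*, *KRT18*, *KRT7* and *KRT80*) and 1 higher (*KRT23*), where 2.13% of all tested genes were lower and 6.15% higher. Their median log2 change was 0.054 in siHHEX and -0.62 in siYAP/TAZ, beside -0.0055 and 0.082 over all tested genes. Leaving out siNC 1 or siNC 2 left 0 of the 8 called in siHHEX (19 and 27 genes called in all), and 3 and 1 in siYAP/TAZ (22 and 15 genes in all). With the GC and length correction, calls in siHHEX fell from 3518 to 663 genes in all, and 4 of the 8 keratins were called, *KRT8* being added to the 3. With a replicate block as well, 146 genes were called in all and *KRT8* was lost again.

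**Figure D3:**
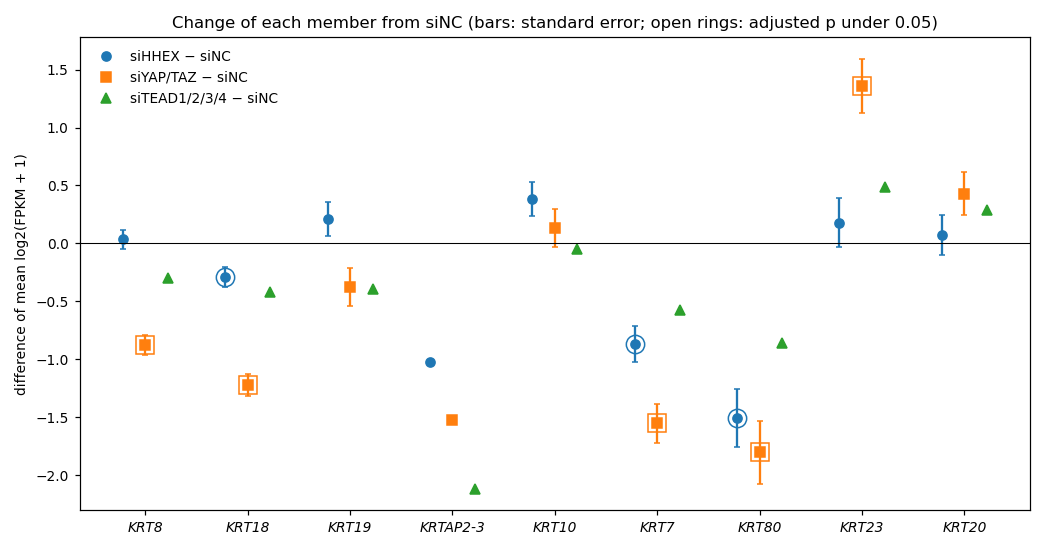
Difference from siNC of the mean log2(FPKM + 1) of each gene (vertical axis) in siHHEX (circles), siYAP/TAZ (squares) and the single siTEAD1/2/3/4 library (triangles), with genes ordered by their siNC level. Bars are limma standard errors and open outlines mark adjusted p under 0.05, neither of which is given for *KRTAP2-3* or for siTEAD1/2/3/4. *KRT18*, *KRT7*, *KRT80* and *KRTAP2-3* lay below 0 in all comparisons, and *KRT23* rose by 1.36 in siYAP/TAZ.

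The low-abundance type II members *KRT7* and *KRT80* were lower in every knockdown library than in siNC. *KRT7*, a keratin of ductal and glandular epithelia, stood at 5.94 and 6.53 FPKM in siNC, at 2.66, 2.57 and 3.76 in siHHEX, at 1.54 and 1.39 in siYAP/TAZ and at 3.85 in siTEAD1/2/3/4. No knockdown library overlapped siNC, and both siYAP/TAZ libraries lay below all siHHEX libraries. *KRT7* fell to 48.1% of the siNC mean in siHHEX (log2 change -0.87, SE 0.153, adjusted p = 0.00722, limma) and to 23.5% in siYAP/TAZ (-1.55, SE 0.167, adjusted p = 0.00342, limma). The corrected siHHEX change, for GC content and length, was -1.31 (adjusted p = 0.00287, limma). The difference of -0.68 between siYAP/TAZ and siHHEX passed (adjusted p = 0.0104, limma), but not without siHHEX 3 and siYAP/TAZ 2 (adjusted p = 0.0614, limma) or with the GC and length correction (-0.24; adjusted p = 0.204, limma). An antisense gene, *KRT7-AS*, covers 8.32% of the 100-base windows of the *KRT7* transcript, and without strand its reads cannot be separated.

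*KRT80*, a type II keratin found at desmosomes and in the filament network, stood at 5.70 and 6.37 FPKM in siNC, at 0.935, 1.11 and 2.71 in siHHEX, at 0.859 and 1.18 in siYAP/TAZ and at 2.88 in siTEAD1/2/3/4. Every knockdown library lay below siNC, siHHEX 3 was the highest of the siHHEX libraries, and siHHEX and siYAP/TAZ overlapped. *KRT80* had the most negative log2 change of the 8 keratins in siHHEX (-1.51, SE 0.25, adjusted p = 0.0064, limma), and in siYAP/TAZ (-1.80, SE 0.274, adjusted p = 0.00996, limma). The siYAP/TAZ call was lost with no filter, without either siNC library and without siYAP/TAZ 2, where the change was -1.92 in the remaining library. The difference between siYAP/TAZ and siHHEX was -0.30 (SE 0.25, adjusted p = 0.356, limma).

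*KRT23*, a type I keratin of internal epithelia, was the only one of the 8 keratins called higher with all libraries. It stood at 3.22 and 3.06 FPKM in siNC, at 3.04, 4.76 and 3.42 in siHHEX, at 12.4 and 7.43 in siYAP/TAZ and at 4.80 in siTEAD1/2/3/4. The siYAP/TAZ libraries lay above all others and differed from each other, the one without the squamous signal being the higher, while siHHEX overlapped siNC. *KRT23* rose to 316% of the siNC mean in siYAP/TAZ (log2 change 1.36, SE 0.233, adjusted p = 0.0148, limma) and changed by 0.18 in siHHEX (SE 0.213, adjusted p = 0.52, limma). The siYAP/TAZ call was lost with no filter and without either siNC library. The difference between siYAP/TAZ and siHHEX was 1.18 (SE 0.213, adjusted p = 0.00576, limma), and it was no longer called with the GC and length correction and replicate block together (1.26, adjusted p = 0.0547, limma).

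*KRT20*, the type I keratin of differentiated intestinal epithelium, was near 1 FPKM throughout. It stood at 0.997 and 0.775 FPKM in siNC, at 0.577, 1.15 and 1.28 in siHHEX, at 1.46 and 1.62 in siYAP/TAZ and at 1.31 in siTEAD1/2/3/4. Both siYAP/TAZ libraries lay above all others, and siHHEX spanned siNC. *KRT20* did not pass the test in siYAP/TAZ (log2 change 0.43, SE 0.186, adjusted p = 0.174, limma) or in siHHEX (0.072, SE 0.17, adjusted p = 0.754, limma).

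*KRT10*, the type I keratin of the upper epidermis, stood at 7.77 and 7.07 FPKM in siNC, at 9.04, 9.01 and 12.1 in siHHEX, at 8.21 and 8.26 in siYAP/TAZ and at 7.15 in siTEAD1/2/3/4. All siHHEX and siYAP/TAZ libraries lay above siNC, and the highest value was in siHHEX 3, one of the libraries with squamous markers. The changes did not pass the test (siHHEX 0.38, SE 0.148, adjusted p = 0.0723; siYAP/TAZ 0.13, SE 0.162, adjusted p = 0.631, limma), except in siHHEX without siHHEX 2 (0.45, adjusted p = 0.0416, limma). *KRT1*, its usual type II partner, reached 2.47 FPKM in siHHEX 3 and 3.77 in siYAP/TAZ 2 and stayed at or under 0.151 in the other libraries.

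Between siYAP/TAZ and siHHEX, 4 of the 8 keratins were lower in siYAP/TAZ (*KRT8*, *KRT18*, *KRT19* and *KRT7*) and 1 higher (*KRT23*), where 13.5% of all tested genes were lower and 25.9% higher. The median log2 difference of the 8 was -0.44, beside 0.13 over all tested genes. Without siHHEX 3 and siYAP/TAZ 2, a choice made after seeing the data, *KRT19* and *KRT7* were no longer called. Fewer of all tested genes were called between these groups as well. Against siNC, 3 of the 8 were then called in siHHEX, where 27.3% of all tested genes were called. The siYAP/TAZ group was then 1 library without a replicate. Its p rested on the spread of the other groups, so its calls are not counted.

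In the single siTEAD1/2/3/4 library, 0 of the 8 keratins passed a 2-fold difference from siNC on the log2(FPKM + 1) scale, where 0.478% of tested genes were lower and 0.412% higher by this measure. The count depends on the pseudocount for *KRT80*, which stood at 47.6% of the siNC mean in FPKM and differed by -1.04 with a pseudocount of 0.1. The log2 differences were -0.86 for *KRT80*, -0.57 for *KRT7*, -0.42 for *KRT18*, -0.39 for *KRT19* and -0.30 for *KRT8*, and 0.49 for *KRT23*, 0.29 for *KRT20* and -0.047 for *KRT10*. *KRT8*, *KRT18*, *KRT19*, *KRT7* and *KRT80* lay below both siNC libraries, *KRT23* and *KRT20* lay above them, and *KRT10* lay between them. The difference has no replicate check.

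*KRTAP2-3*, a hair cortex keratin-associated gene, was the only one of 93 KRTAP genes that reached the filter of 1 FPKM in 2 libraries, and 77 of them were listed at 0 in all libraries. It stood at 12.2 and 11.2 FPKM in siNC, at 2.92, 6.76 and 6.93 in siHHEX, at 3.08 and 3.74 in siYAP/TAZ and at 1.92 in siTEAD1/2/3/4. All knockdown libraries lay below siNC, which is how the gene was chosen. Within siHHEX the libraries differed, siHHEX 1 lying below both siYAP/TAZ libraries and siHHEX 2 and siHHEX 3 above them. The means were 47.5%, 29.2% and 16.5% of the siNC mean in siHHEX, siYAP/TAZ and siTEAD1/2/3/4, or log2 changes of -1.02, -1.52 and -2.11. Per library, the change was -1.69 in siHHEX 1, -0.70 in siHHEX 2 and -0.67 in siHHEX 3, so without siHHEX 1 the siHHEX mean was -0.69. Over all 3 siHHEX libraries it was -1.45 with the GC and length correction, and -1.57 with the replicate block added. *KRTAP2-3* was lowest in siTEAD1/2/3/4, whereas *KRT8*, *KRT18* and *KRT7* were lowest in siYAP/TAZ, an order that rests on 1 siTEAD1/2/3/4 library, and *KRT80* overlapped between siYAP/TAZ and siHHEX. Among hair keratins, *KRT31*, *KRT85* and *KRT86* summed to at most 0.31 FPKM. Of those described below, *KRT81* was lower in every knockdown library than in siNC. *KRT32* went the other way, at 0.377 and 0.27 FPKM in siNC and 0.458 to 1.17 in the knockdown libraries, and was not called.

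The order of levels within siNC was *KRT8*, *KRT18*, *KRT19*, *KRTAP2-3*, *KRT10*, *KRT7*, *KRT80*, *KRT23* and *KRT20*, in which *KRT7* and *KRT80* overlapped and all other neighbours were separate. In siHHEX, *KRT19* ranked above *KRT18* but overlapped it, and *KRTAP2-3*, *KRT23*, *KRT7* and *KRT80* each overlapped the next, with *KRT20* last. In siYAP/TAZ, *KRT19* stood above *KRT18* without overlap, *KRT23* ranked 4 but overlapped *KRT10*, *KRT20* overlapped *KRT7*, and *KRT80* was last at 1.02 ± 0.23 FPKM (SD, n = 2). *KRTAP2-3* ranked 4 in siNC, 5 in siHHEX, 6 in siYAP/TAZ and 8 in siTEAD1/2/3/4.

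The genes with a pattern most like *KRTAP2-3* over the 6 knockdown libraries were *BCAR3*, *GPRC5A* and *COL12A1*, with a root mean square difference in log2 change of 0.38, 0.43 and 0.46. *BCAR3* encodes an adaptor that binds *BCAR1*, *GPRC5A* an orphan receptor, and *COL12A1* a collagen chain. All 3 were below 0 in each knockdown library, as *KRTAP2-3* was. The largest gap to *BCAR3* was in siTEAD1/2/3/4, where *BCAR3* changed by -1.28 and *KRTAP2-3* by -2.11. For *GPRC5A* it was in siYAP/TAZ 2 (-2.06 against -1.42) and for *COL12A1* in siHHEX 3 (-1.36 against -0.67).

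**Figure D4:**
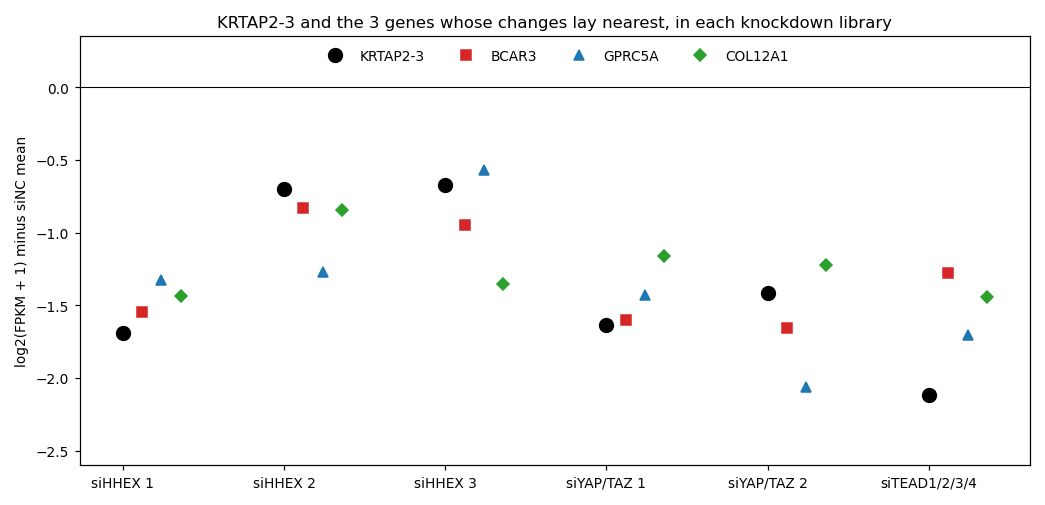
Log2(FPKM + 1) minus the siNC mean (vertical axis) of *KRTAP2-3*, *BCAR3*, *GPRC5A* and *COL12A1* in each knockdown library (horizontal axis). *KRTAP2-3* lay at -0.70 and -0.67 in siHHEX 2 and siHHEX 3 and at -1.42 or lower in the other libraries.

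By the same measure, the nearest gene to *KRT8* was the neuropeptide gene *GAL* (0.073), and to *KRT18* the annexin partner *S100A10* (0.11). *KRT7* lay nearest to the stress gene *GADD45B* (0.18), *KRT80* to *CYR61* (0.29), a matricellular gene widely used as a YAP target, and *KRT23* to *PERP* (0.23), a desmosome-associated gene. The nearest genes to *KRT19*, *KRT20* and *KRT10* were *RDH13* (0.11), *GSE1* (0.074) and *MAP3K11* (0.0505). These distances are descriptions over 6 libraries that share the siNC mean.

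Of the 55 keratin genes in the files, 22 passed the filter, 8 of them members and 14 others, and 11 were listed at 0 in all libraries. Without siHHEX 3 and siYAP/TAZ 2, 9 of the 14 others would not have passed, and 1 of these, *KRT32*, was not high in siYAP/TAZ 2 (0.507 FPKM, against 1.11 in siYAP/TAZ 1). *KRT81*, a type II hair keratin, stood at 1.55 and 1.68 FPKM in siNC, at 0.336, 0.79 and 0.628 in siHHEX, at 0.187 and 0.168 in siYAP/TAZ and at 0.252 in siTEAD1/2/3/4. It lay below siNC in every knockdown library, with log2 changes of -0.73 in siHHEX and -1.15 in siYAP/TAZ. It passed the filter only through the 2 siNC libraries, where it was high, so these changes are given without a test. It shares 30.3% of its 100-base windows with other genes, mainly *KRT86*. *KRT222*, a keratin-like gene of neither type, stood at 1.79 and 1.58 FPKM in siNC and 3.23 and 5.18 in siYAP/TAZ, a log2 change of 0.93 (adjusted p = 0.0219, limma). This call was lost without siYAP/TAZ 2, and also without both siHHEX 3 and siYAP/TAZ 2. With all libraries *KRT81* and *KRT222* were the only calls among the 14 others, so that 4 of the 22 keratins were lower and 0 higher in siHHEX, where 16.9% and 16.0% of all tested genes were called, and 5 were lower and 2 higher in siYAP/TAZ, where 2.13% and 6.15% were. Nothing is read from these counts, since *KRT81* and the 9 keratins above owed their place among the 22 to libraries where they were high.

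The other 12 of these keratins were not called in siHHEX or siYAP/TAZ in the fit of all libraries. Without siHHEX 3 and siYAP/TAZ 2, *KRT13* and *KRT6A* were called higher in siHHEX and *KRT13* in siYAP/TAZ, then 1 library, where *KRT13* changed by 2.15 with all libraries (adjusted p = 0.0552, limma) and by 2.17 with the GC and length correction (adjusted p = 0.043, limma). *KRT13* was also called in siYAP/TAZ with the replicate block and without siHHEX 3 alone, and *KRT6A* in siHHEX with only the groups compared and without siYAP/TAZ 1 or siYAP/TAZ 2 alone. Without siYAP/TAZ 1, siYAP/TAZ 2 was the single library of its group and 13 of the 22 keratins were called, a count not read as a result, since it includes genes that would not have passed the filter without this library and siHHEX 3. *KRT13*, a keratin of stratified mucosa, stood at 3.47 and 4.20 FPKM in siNC, at 5.91, 5.64 and 15.7 in siHHEX, at 9.77 and 41.4 in siYAP/TAZ and at 4.62 in siTEAD1/2/3/4. The siHHEX and siYAP/TAZ libraries all lay above siNC, and the highest were siHHEX 3 and siYAP/TAZ 2. *KRT6A*, a keratin of wounded and stratified epithelia, reached 13.9 and 25.3 FPKM in these 2 libraries and 2.86 to 7.08 in the others. *KRT14*, of the basal epidermis, reached 10.1 and 12.3 FPKM in them and at most 1.05 elsewhere.

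**Figure D5:**
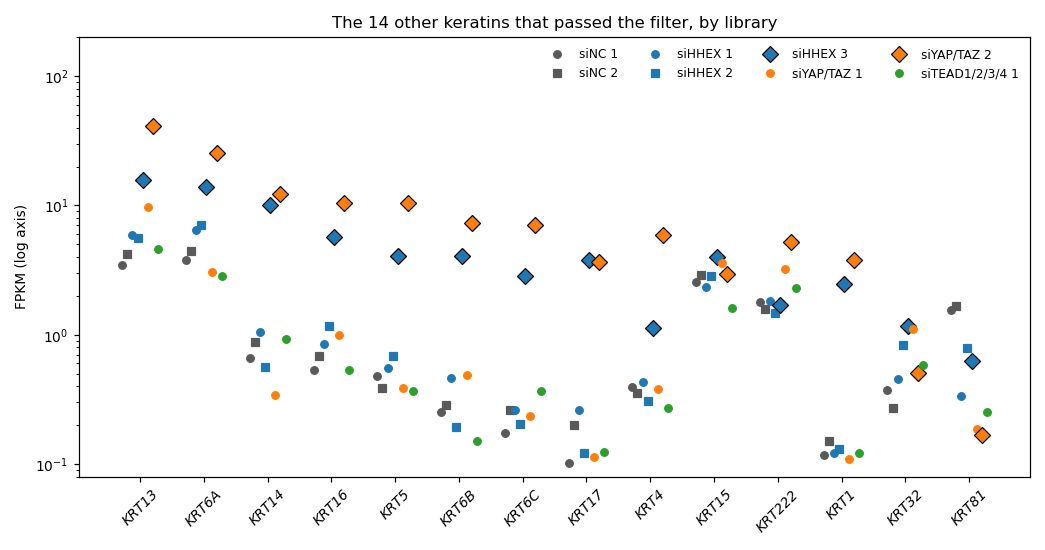
FPKM (log axis) of the 14 keratin genes outside the set that passed the filter, with 1 point per library. Diamonds mark siHHEX 3 and siYAP/TAZ 2, which lie above all other libraries for genes such as *KRT14* (10.1 and 12.3 FPKM) and not for *KRT81* (0.628 and 0.168 FPKM).

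Partner genes of the keratin filaments were taken from a list of 31, of which 19 were tested, namely other intermediate filament genes, linkers to junctions and proteins that bind or turn over keratins. In siHHEX 2 were lower (*LMNB1* and *DST*) and 5 higher (*NES*, *EPPK1*, *JUP*, *PKP3* and *STUB1*), and in siYAP/TAZ 1 was lower (*LMNB1*) and 3 higher (*NES*, *BFSP1* and *EPPK1*), beside 16.9% lower and 16.0% higher of all tested genes in siHHEX and 2.13% and 6.15% in siYAP/TAZ. With the GC and length correction, *LMNB1* was the only one of the 7 still called in siHHEX (-0.42, adjusted p = 0.0468, limma), and *STUB1* changed sign, from 0.37 to -0.13 (adjusted p = 0.406, limma). The linker gene *PLEC*, which encodes plectin, was newly called lower with it, in siHHEX (-0.66, adjusted p = 0.0195, limma) and in siYAP/TAZ (-0.65, adjusted p = 0.0174, limma). The median log2 change of the 19 was 0.11 in siHHEX and 0.085 in siYAP/TAZ, beside -0.0055 and 0.082 over all tested genes. Between siYAP/TAZ and siHHEX, 3 were lower and 5 higher, beside 13.5% and 25.9% of all tested genes, among them the desmosomal linker gene *DSP* (log2 difference 0.63, adjusted p = 0.00801, limma). With the GC and length correction, *DSP* (0.44, adjusted p = 0.0474, limma), *NES* and *BFSP1* were still called higher, *DST*, *MACF1* and the 3 lower genes (*LMNB2*, *PKP3* and *STUB1*) were not called, and *PPL* was newly called higher (0.65, adjusted p = 0.0401, limma). *NES*, which encodes nestin, stood at 0.811 and 1.04 FPKM in siNC, at 1.89, 2.03 and 1.92 in siHHEX, at 3.24 and 2.87 in siYAP/TAZ and at 2.199 in siTEAD1/2/3/4. It lay above siNC in every knockdown library, with log2 changes of 0.62 in siHHEX (adjusted p = 0.00973, limma) and 1.07 in siYAP/TAZ (adjusted p = 0.00561, limma). With the GC and length correction, the siHHEX change was 0.36 and no longer passed (adjusted p = 0.0923, limma). *EPPK1*, which encodes the keratin-binding linker epiplakin, stood at 1.83 and 1.97 FPKM in siNC, at 2.89, 3.15 and 3.09 in siHHEX, at 3.70 and 4.21 in siYAP/TAZ and at 3.24 in siTEAD1/2/3/4. Its siHHEX change of 0.48 (adjusted p = 0.0182, limma) was 0.12 with the GC and length correction (adjusted p = 0.601, limma), and in siYAP/TAZ the change was 0.77 (adjusted p = 0.0148, limma). *VIM*, the mesenchymal filament gene vimentin, did not exceed 1.36 FPKM and did not pass the filter.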

How the data were processed

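RNA of siRNA-transfected HCT-116 cells was taken up in Trizol and sequenced on a HiSeq platform, and the authors deposited the FPKM of each gene in a file per library. Per the submitters' processing notes, the tools included Trimmomatic 0.36, HISAT2 2.0.5, HTSeq 0.9.1 and Cufflinks 2.2.1; the genome build of the RNA-seq is not given in the sources used here. Groups came from the labels. The filter required 1 FPKM or more in 2 or more libraries, which 10677 of 20030 genes met. log2(FPKM + 1) of all 8 libraries was modelled together with limma 3.58.1 in R 4.3.3, using its variance trend. Benjamini-Hochberg adjustment covered every tested gene, with 0.05 as threshold. The pseudocount of 1 understates changes of low genes. siTEAD1/2/3/4, with 1 library, got no p. The fit was tested on simulated data before use.

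The members and lists were chosen with earlier results of these data known. The text names the 9 members, the other KRT and KRTAP genes that passed the filter, at most 8 partner genes by absolute change among those called, the knocked-down genes, the 3 genes nearest to *KRTAP2-3* and the 1 nearest to each keratin. Other named genes are copies of *KRTAP2-3* or members of the lists, among them further partner genes that were named after their values were seen, to account for a count or a changed call. Shared windows came from GENCODE 44 transcripts, alignments from Biopython 1.88, and upstream sequences from RefSeq. Alternatives were a pseudocount of 0.1, no filter, only the groups compared, the replicate block, leaving out each library, median scaling, a correction for GC content and transcript length by splines with 4 degrees of freedom (on 96.9% of tested genes), that correction with the block, and the study's criterion (over 2-fold and unadjusted p under 0.05). The fold of that criterion was taken here on log2(FPKM + 1), so its counts depend on the pseudocount for low genes such as *KRT7*.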

Additional observations from a re-analysis of the deposited data

Results flagged for a closer look

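A list of 18 squamous epithelium genes that are not keratins, chosen after their values were seen and used in no comparison above, summed to 54.6 FPKM in siHHEX 3 and 71.2 FPKM in siYAP/TAZ 2, against 3.87 and 4.09 FPKM in the 2 siNC libraries and 3.44 to 3.73 FPKM in the other 4 libraries. The most abundant gene of the list in both was *S100A9*, a calcium-binding protein of stratified epithelium and myeloid cells, at 11.3 and 11.2 FPKM, and of the 18 genes 9 reached 1 FPKM in siHHEX 3 and 15 in siYAP/TAZ 2. The other libraries had 0 of the 18 at 1 FPKM. The source of this signal, and its part in the higher *KRT13*, *KRT14* and *KRT6A* values of the same libraries and in the higher *KRT10* value of siHHEX 3, was not tested.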

How the results depend on the processing

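Of 360 alternative values for the 24 tested changes of the 8 keratins, 319 kept the direction and the side of the threshold, 28 kept the direction but no longer passed, 2 newly passed and 11 turned the direction. In siHHEX against siNC, the keratins called numbered 3, beside 32.9% of all tested genes. This became 1 under the study's criterion (1.63%) and 2 with no filter (11.7%, *KRT18* lost). When 1 siHHEX library was left out, it was 2 to 4 (19.8% to 45.3%). Leaving out a siNC library left 1 library in that group, and the lower counts then found are given in the Results. In siYAP/TAZ against siNC, 5 (beside 8.28% of all tested genes) became 3 with no filter (more genes tested, 1.97%). It became 4 under the study's criterion (1.57%) and 6 with only the groups compared (16.5%, *KRT19* added). It stayed at 5 when 1 siHHEX library was left out (5.53% to 12.3%). Calls lost with 1 siNC or siYAP/TAZ library are given in the Results. In siYAP/TAZ against siHHEX, 5 keratins were called, beside 39.3% of all tested genes. The GC and length correction left 3 (9.02%), and adding the replicate block to it left 2 (2.39%). Under the study's criterion 1 was called (1.52%). In each of these settings the share of all genes called fell as well. The count stayed at 5 when 1 siHHEX library was left out (27.8% to 48.3%). Calls lost without siHHEX 3 and siYAP/TAZ 2 are given in the Results. For all tested keratin genes, 4 in siHHEX became 1 under the study's criterion and 0 to 5 when 1 library was left out, and 7 in siYAP/TAZ became 4 with no filter and 1 to 13 when 1 library was left out (13 without siYAP/TAZ 1). Nothing is read from these counts for all tested keratin genes, since *KRT81* and 9 others passed the filter through libraries where they were high. The 0, the 1 and the 13 found when 1 library was left out came from fits with 1 library in a group. The share of all genes called fell too, to 1.63% under that criterion (siHHEX) and 1.97% with no filter (siYAP/TAZ). The type II shares moved by less than the spread between replicates.

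The direction turned only for changes that had not been called. *KRT8* in siHHEX was -0.35 with the GC and length correction, -0.32 with the replicate block added and -0.015 to 0.087 when 1 library was left out (lowest without siNC 1). *KRT19* in siHHEX was -0.26 with the correction and -0.32 with the block added. *KRT20* in siHHEX was -0.031 with the replicate block, -0.031 without siHHEX 3 and siYAP/TAZ 2, and -0.031 to 0.24 when 1 library was left out (below 0 without siHHEX 3 or siNC 2). With the correction and block together, *KRT80* and *KRT10* in siYAP/TAZ against siHHEX were 0.19 and 0.051. The cause was not tested.

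Same-numbered libraries did not deviate together (correlations of -0.037, -0.025 and -0.043), so the numbers were not taken to pair them. With the replicate block, 2 keratins were called in siHHEX (*KRT18* lost), 5 in siYAP/TAZ and 5 between them. All genes called fell from 3518 to 2062 in siHHEX, rose from 884 to 1031 in siYAP/TAZ and fell from 4200 to 2937 between them.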
